A study of Mus musculus with 4 samples.

Results

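Mucins and trefoil factors are products of mucous epithelium, and 6 of their genes were followed here across injured pancreas cells: Muc1, Muc5ac, Muc6, Tff1, Tff2 and Tff3. They were taken by name, and they are 6 of the 32288 features in the count table. All were present as features, but 1 of them, Muc5ac, was close to undetected. The cells came from mice of the genotype Ptf1aCre-ERTM;ROSAYFP/+, backcrossed into CD-1 and 10 weeks old when injury began. Tamoxifen given before injury switched on EYFP, a yellow fluorescent protein, through a Cre driven by Ptf1a, so a marked cell is one in which Ptf1a was active at that time, or a descendant of one. Caerulein, a peptide that causes pancreatitis, was then given for 2 weeks in 2 mice and for 4 weeks in 2 mice. All 4 mice shared the genotype, the tamoxifen and the caerulein, and no uninjured mouse was analysed here. EYFP+ cells were sorted and profiled one by one with a 3′ assay that counts unique molecular identifiers (UMIs), each standing for 1 captured RNA molecule.

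Mucins are large glycoproteins whose sugar chains bind water. Muc6 and Muc5ac are secreted and form gels, Muc6 in the deep, neck-type mucous cells and glands of the stomach and Muc5ac in its surface pit cells, while Muc1 stays in the cell membrane and covers most epithelial surfaces. Trefoil factors are small secreted peptides that accompany mucus: Tff2 is paired with Muc6 in neck-type cells, Tff1 with Muc5ac in pit cells, and Tff3 is best known from goblet cells of the intestine. In the pancreas, gel-forming mucins and trefoil factors are known from metaplastic lesions that follow injury.

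The deposited tables held 21140 cells, of which 13362 carried 1 of 8 type names (Acinar, Acinar.Prolif, Acinar/MucinDuctal, MucinDuctal, Ductal-like, Tuft/EEC.Progenitor, Tuft and EEC, for enteroendocrine cells) and 7778 carried none. Totals per mouse ran from 72459531 to 103610807 UMIs. The names were checked against marker lists: the acinar list took 323390 ± 29784 CPM (SD, n = 4 mice) in Acinar and 12752 ± 2394 in MucinDuctal cells, and the tuft list 6379 ± 183 in Tuft and means of at most 307 in any other type (Tuft/EEC.Progenitor, up to 505 in 1 mouse, its 10-cell mouse included). The ductal and mucin/ductal list, without the 6 genes, was less specific, at 24680 ± 3173 CPM in Ductal-like, 17273 ± 2148 in Tuft, 13043 ± 1865 in MucinDuctal and 6618 ± 658 in Acinar/MucinDuctal cells, so Tuft cells were above both mucin types on it. The enteroendocrine list stood at 120938 ± 53715 CPM in EEC, 3140 ± 3781 in Ductal-like, 2981 ± 2184 in Acinar/MucinDuctal and 237 ± 116 in MucinDuctal cells. Here CPM is the share of a type's UMIs in a mouse that belong to a gene, per 1000000. The typed cells are those of the EYFP-positive table, so each holds an EYFP UMI, as did 5.84% to 9.02% of untyped B-like cells. A single EYFP UMI was all that 29.4% to 56.7% of Acinar/MucinDuctal and 14.3% to 65.2% of Ductal-like cells held, against 2.95% to 6.24% of MucinDuctal cells. In all, 67 of 21068 distinct barcodes occurred in more than 1 library. Tuft/EEC.Progenitor cells numbered 10 in 2-week mouse 1, which was left out of the means of the members in that type.

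Droplets also capture free RNA, so a background was measured in the untyped B-like and T or NK-like cells, lymphocytes that should make no mucin. In them Tff2 stood at 503 and 668 CPM in the 2-week mice and at 1529 and 2640 CPM in the 4-week mice. Muc6 stood at 40.8, 111, 105 and 154 CPM in the same order, and Tff1 at 0.994, 7.23, 0 and 3.39 CPM. Muc1 lay between 8.68 and 15.8 CPM, Tff3 at no more than 0.723 CPM, and Muc5ac had no UMI in them. The background of Tff2 was thus higher in both 4-week mice than in both 2-week mice. In UMIs per cell it was 1.96, 2.91, 5.70 and 8.25. These lymphocytes were shallow, with median depths of 2790.5 to 4055.5 UMIs. Tuft cells had 14809 to 20481 UMIs and Acinar cells 24008 to 32664.5 UMIs. A type can therefore lie below the background on CPM and above it in UMIs per cell.

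Of the 6 genes, Muc1 and Muc6 had an entry in the RefSeq promoter table of build GRCm38.p6, and the 250 bases before each start are shown because these 2 genes differ in how widely they were found. Muc1 is at chr3:89229056-89233381 on the plus strand, and its upstream stretch is chr3:89228806-89229055. Muc6 is at chr7:141633459-141655393 on the minus strand, and its stretch is chr7:141655394-141655643. Both are printed 5′ to 3′ on the strand of the gene, with a match to the TATA-like letters TATANA in capitals.
Muc1: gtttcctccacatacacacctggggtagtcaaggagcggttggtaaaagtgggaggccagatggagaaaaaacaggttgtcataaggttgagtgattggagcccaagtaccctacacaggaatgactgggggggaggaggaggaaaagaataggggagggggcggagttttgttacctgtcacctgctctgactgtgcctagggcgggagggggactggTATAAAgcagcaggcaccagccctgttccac
Muc6: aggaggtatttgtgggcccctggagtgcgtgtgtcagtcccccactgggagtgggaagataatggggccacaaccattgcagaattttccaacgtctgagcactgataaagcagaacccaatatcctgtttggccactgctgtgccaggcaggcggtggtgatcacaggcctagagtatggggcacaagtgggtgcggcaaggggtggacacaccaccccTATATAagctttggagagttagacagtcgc
The TATANA match spans bases 31 to 26 before the start in Muc1 (TATAAA) and 30 to 25 in Muc6 (TATATA). With both strands searched, GGGCGG, the letters bound by Sp-type factors, was found in Muc1 at 91 to 86 and at 49 to 44 bases before the start and not in Muc6. GATAA, the core letters bound by GATA factors, was found in Muc6 at 193 to 189 and at 146 to 142 bases before the start and not in Muc1. TGTTTAC, a forkhead-type motif, was in neither stretch. Among 32851 upstream stretches of the same length, 22.6% held TATANA, 22.6% GATAA, 32.7% GGGCGG and 3.17% TGTTTAC, so each match is a description of these letters only. No overlap between the motifs was seen in either stretch.

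Muc1 lies alone on chromosome 3, and the other members form 2 groups, on chromosomes 7 and 17. Tff3 (chr17:31125306-31129611), Tff2 (chr17:31141062-31144282) and Tff1 (chr17:31161395-31165060) follow each other with gaps of 11450 and 17112 bases and no annotated gene between them. Muc5ac (chr7:141788958-141819227) lies 133564 bases from Muc6, with Muc2 between them. Tff1 overlaps the annotated gene Gm15318, so reads of these 2 genes may not be separable. Of these 3 neighbours, Tff1 and Tff2 were highest in MucinDuctal cells and Tff3 in EEC cells, as given below.

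Muc6, the gland mucin of the stomach, was highest in MucinDuctal cells, at 4761 and 2057 CPM in the 2-week mice and 6601 and 4115 CPM in the 4-week mice. The mean was 4384 ± 1875 CPM (SD, n = 4), and within each mouse the log2 ratio to Acinar cells was 6.13 ± 1.33. Acinar enzymes took 486441 to 571171 CPM in Acinar and 13994 to 29686 CPM in MucinDuctal cells, which leaves less of the total for other genes there, and the median log2 ratio of all 14387 genes with at least 100 UMIs was 1.19. Acinar/MucinDuctal cells followed with 2287 ± 951 CPM and Ductal-like cells with 961 ± 547 CPM. Tuft/EEC.Progenitor cells had 644 ± 249 CPM (n = 3). Each of these neighbours overlapped over mice, although MucinDuctal was above Acinar/MucinDuctal in 4 of 4 mice. Below them, without overlap, came EEC, Acinar.Prolif, Tuft and Acinar cells at means of 63.6 to 90.3 CPM. On this scale that is within the range of the lymphocyte background. MucinDuctal cells held between 76.8% and 91.0% of all typed Muc6 UMIs of a mouse. No test of levels was made between types here or later, because the deposited names may rest on these very counts. Only differences over time were tested between types, further below.

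Tff2, the trefoil peptide of neck cells, had the same leading types. In MucinDuctal cells it reached 37112 and 12794 CPM at 2 weeks and 53122 and 36785 CPM at 4 weeks. Acinar/MucinDuctal cells had 14359 and 5899 CPM at 2 weeks and 30487 and 30476 CPM at 4 weeks. The 2-week mouse 2 was the lowest mouse for Muc6 and Tff2 in both types. Ductal-like cells had 4870 ± 2871 CPM and Tuft/EEC.Progenitor cells 3144 ± 595 CPM (n = 3), and these 2 overlapped.

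Acinar cells also carried Tff2, but here the background matters. Their level was 1943, 2311, 2113 and 1554 CPM, against 503, 668, 1529 and 2640 CPM in lymphocytes of the same mice. On CPM it was above the background in 3 mice and below it in 4-week mouse 2. In UMIs per cell it was above the background in each of the 4 mice, at 66.7, 68.8, 72.4 and 62.2. The lymphocytes held 1.96, 2.91, 5.70 and 8.25 UMIs per cell, and the part of free RNA was not tested. Acinar.Prolif cells, the acinar cells with proliferation genes, were even over mice at 2371 ± 89.0 CPM. EEC cells at 833 ± 356 CPM and Tuft cells at 469 ± 192 CPM were the lowest. On CPM, Tuft cells were below the background in each of the 4 mice. In UMIs per cell they were above it in each of the 4 mice, at 7.45, 5.10, 9.97 and 10.2.

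Shares of cells with more Muc6 or Tff2 than a set minimum were compared next. A cell was counted after thinning to 1500 UMIs, and only if its UMIs of the gene reached the minimum that a Poisson count at the mean background rate of its mouse would reach with a probability under 0.01. For Muc6 that minimum was 2 or 3 UMIs. Such cells made up 74.5%, 32.6%, 81.4% and 64.1% of MucinDuctal cells (2-week mice 1 and 2, then 4-week mice 1 and 2). They made up 58.0%, 26.8%, 61.6% and 48.8% of Acinar/MucinDuctal cells and 35.9%, 28.5%, 9.32% and 18.1% of Ductal-like cells. Tuft/EEC.Progenitor cells had 8.81%, 12.8% and 4.27% in 3 mice, which overlaps Ductal-like cells. In Acinar cells the share was at most 0.711% and in Acinar.Prolif cells at most 2.16%, against at most 0.602% in B-like and 2.36% in T or NK-like cells.

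For Tff2 the minimum was 4, 5, 7 and 10 UMIs in the same order, so the 4-week values rest on a higher bar. Acinar/MucinDuctal cells passed it in 61.8% ± 11.9 of cells and MucinDuctal cells in 52.6% ± 8.51 (n = 4). Acinar cells passed it in 40.5% and 31.4% at 2 weeks and in 13.4% and 3.19% at 4 weeks. B-like cells passed it in 2.37% to 10.3% and T or NK-like cells in 3.89% to 13.2%, more than the 0.01 probability sets, so for Tff2 the minimum does not by itself mark cells beyond free RNA. In Acinar cells the share was thus above both lymphocyte classes in the 2-week mice, close to the 10.3% of B-like cells in 4-week mouse 1, and in 4-week mouse 2 below the 8.62% and 13.2% of the lymphocytes. The share in Acinar cells was lower where the background minimum was higher, and the part of free RNA in this was not tested.

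Without the background minimum, the plain share of cells with a UMI at 1500 UMIs was 81.4%, 58.7%, 93.0% and 84.3% for Muc6 in MucinDuctal cells, against 6.1% to 16.2% in B-like cells. Before thinning, median depths were 15110 to 21810 UMIs in MucinDuctal and 2791 to 3534 UMIs in B-like cells. For Tff2 the plain share was 83.8% to 92.8% in MucinDuctal cells and 44.8% to 81.6% in B-like cells. A single Tff2 UMI in a cell can thus not be told from free RNA in these libraries.

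**Figure D1:**
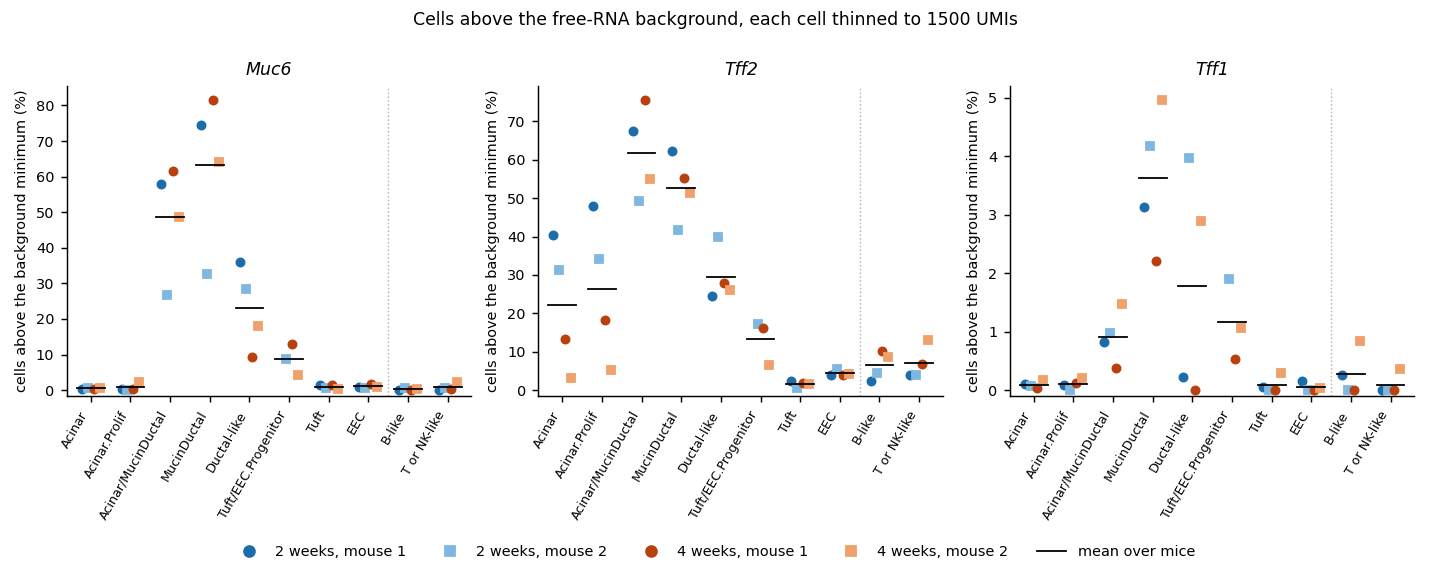
Share of cells (%) whose UMIs of Muc6, Tff2 or Tff1 reach the background minimum of their mouse, each cell thinned to 1500 UMIs, with 1 point per mouse and a line at the mean. Mean Muc6 shares are highest in MucinDuctal and Acinar/MucinDuctal cells, Ductal-like cells overlap both over mice and overlap Tuft/EEC.Progenitor cells, and the Tff2 share of Acinar cells runs from 40.5% down to 3.19%.

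The ratio of Tff2 to Muc6 UMIs was lower in the mucous types than in acinar cells. It was 7.79, 6.22, 8.05 and 8.94 in MucinDuctal cells and 4.07, 5.89, 4.32 and 5.79 in Ductal-like cells, with 5.70 to 12.7 in Acinar/MucinDuctal cells. In Acinar cells it was 69.2, 22.9, 35.6 and 23.5, higher than in MucinDuctal cells of the same mouse in 4 of 4 mice. B-like cells, which show the free RNA, had 11.0, 6.46, 18.1 and 22.7. The acinar ratio was above that of the B-like cells in 4 of 4 mice, though in 4-week mouse 2 only by 23.5 to 22.7. On CPM, Muc6 in Acinar cells, at 28.1, 100.8, 59.4 and 66.2, was below the lymphocyte background of the same mouse in 4 of 4 mice. In UMIs per cell it was above that background in 4 of 4 mice. Acinar cells held 1407 Muc6 UMIs in 1461 cells, 1750 in 583, 1550 in 762 and 2363 in 892. The lymphocytes held 0.159, 0.481, 0.393 and 0.481 UMIs per cell. The acinar ratio thus rests on a Muc6 level below the background on CPM, and the part of free RNA in it was not tested.

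Muc6 and Tff2 were unevenly spread within MucinDuctal cells. In each mouse, 50% of the Tff2 UMIs of this type sat in 3.75% to 6.47% of its cells, and 1 cell held up to 24700 of them. For Muc6 the cells holding 50% made up 8.36% to 17.3%, and for Muc1 21.7% to 24.3%. Tff1 was the most uneven, with 50% of its UMIs in 0.539% to 2.52% of the cells. In 2-week mouse 1 a single cell held 48.3% of the Tff1 UMIs of MucinDuctal cells.

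The authors' own clusters split MucinDuctal cells along these genes. Cluster 2 had 6808 ± 740 CPM of Muc6 and 56817 ± 6397 CPM of Tff2 (n = 4), against 1194 ± 441 and 3796 ± 1212 CPM in cluster 1. The 2 clusters did not overlap for either gene. Muc1 went the other way, at 487 ± 49.0 CPM in cluster 1 and 351 ± 18.8 CPM in cluster 2, and was higher in cluster 1 in 4 of 4 mice. Cells above the Muc6 background minimum made up 90.6% to 94.6% of cluster 2 and 19.3% to 49.9% of cluster 1. These clusters may have been drawn on the same counts, so the split is a description of them.

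Cluster 1 made up 30.5%, 82.0%, 23.7% and 43.6% of MucinDuctal cells in the 4 mice. It was largest in 2-week mouse 2, the mouse with the lowest Muc6 and Tff2 in this type. The exact 95% binomial interval was 79.9% to 84.0% for that mouse and 40.9% to 46.4% for 4-week mouse 2, the next highest, and covers counting error only. Within cluster 2 the mice lay close together, with 6135 and 7215 CPM of Muc6 at 2 weeks and 7643 and 6237 CPM at 4 weeks. In cluster 1 the values were 878 and 859 CPM at 2 weeks and 1802 and 1235 CPM at 4 weeks, so 2-week mouse 2 was the lowest there and the second highest in cluster 2. In cluster 1 it also had the lowest share above the Muc6 background minimum, 19.3% against 28.8% to 49.9% in the other mice. In Acinar/MucinDuctal cells, cluster 4 had 3825 ± 1626 CPM of Muc6 and cluster 3 had 999 ± 461 CPM. There 2-week mouse 2 stayed the lowest in both clusters, at 1405 and 640 CPM, and its cells were also the deepest, with a median of 19556 UMIs against 2659 to 3555 in the other mice.

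**Figure D2:**
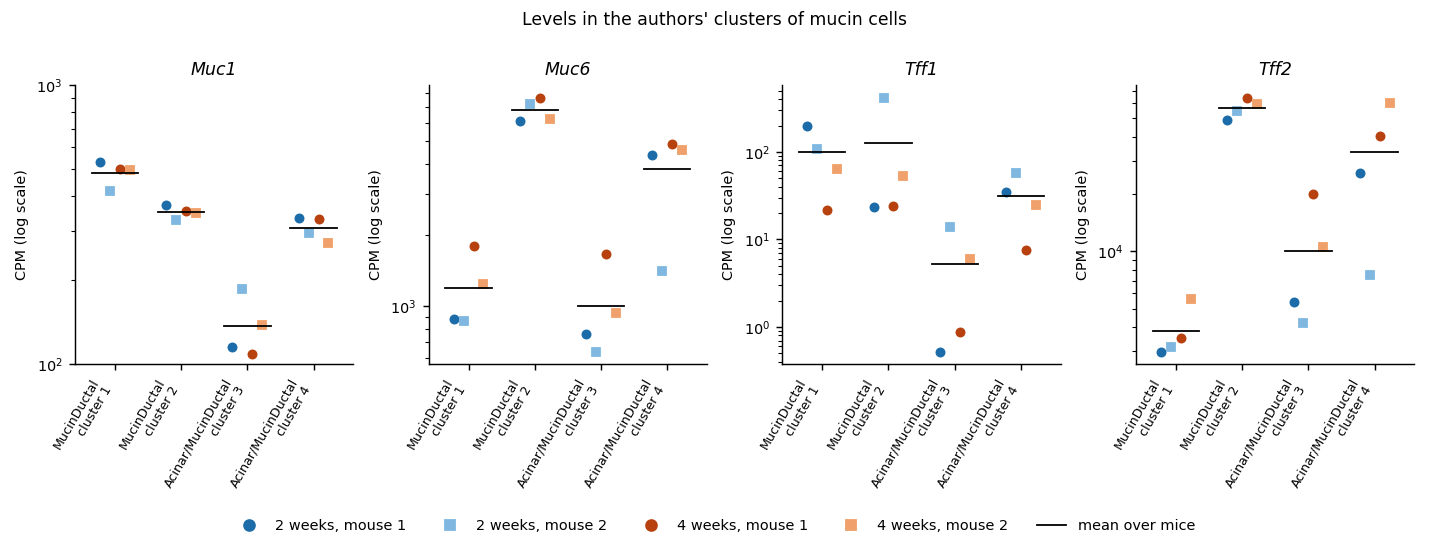
Levels of Muc1, Muc6, Tff1 and Tff2 (CPM, log scale) in the authors' clusters of MucinDuctal and Acinar/MucinDuctal cells, with 1 point per mouse and a line at the mean. Muc6 and Tff2 are higher in cluster 2 than in cluster 1 in each of the 4 mice, and Muc1 is lower.

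Muc5ac, the pit-cell mucin, was almost undetected. It had 39 UMIs in 24 of 13362 typed cells and none in the 7778 untyped cells, and 11 of the UMIs came from 1 cell. MucinDuctal cells held 2, 0, 7 and 1 of these UMIs in the 4 mice. In 2-week mouse 2, the mouse with most MucinDuctal cells, 0 of 1388 cells had a UMI, for which the exact 95% interval of the share reaches 0.265%, and 3 counts there would have made 0.0810 CPM. In Acinar/MucinDuctal cells of 2-week mouse 1 there were 12 UMIs in 2 cells.

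Tff1, the partner of Muc5ac in pit cells, was present without it. In MucinDuctal cells it stood at 69.7 and 166 CPM at 2 weeks and 23.6 and 57.1 CPM at 4 weeks, each above the background of the same mouse. Tuft/EEC.Progenitor cells had 33.1 ± 46.6 CPM (n = 3), Ductal-like cells 32.5 ± 46.9 CPM and Acinar/MucinDuctal cells 17.5 ± 13.5 CPM. In each of these types the highest mouse was 2-week mouse 2, at 86.9, 100.1 and 36.4 CPM. The neighbours in this order overlapped over mice, and all other types were at 1.15 to 1.85 CPM. MucinDuctal cells held 83.4% to 94.4% of typed Tff1 UMIs.

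The share of MucinDuctal cells with Tff1 depended on depth. Above the background minimum it was 3.14%, 4.18%, 2.21% and 4.95% at 1500 UMIs, against at most 0.846% in B-like cells. Before the minimum the share was 3.14%, 11.4%, 2.21% and 4.95%, and the values differ in 2-week mouse 2 because its higher background set the minimum at 2 UMIs there and at 1 UMI in the other mice. At 5000 UMIs the share above the minimum was 5.99%, 11.3%, 5.34% and 4.23%. There the minimum was 2 UMIs in 4-week mouse 2 as well as in 2-week mouse 2. With 1 UMI as the bar in every mouse, the share at 5000 UMIs was 5.99%, 22.9%, 5.34% and 11.3%. Before thinning 14.0%, 44.2%, 11.8% and 21.8% of the cells held a UMI. Unlike Muc6 and Tff2, Tff1 was not sorted by the authors' clusters: it was higher in cluster 1 in 2-week mouse 1 and 4-week mouse 2 and higher in cluster 2 in the other 2 mice.

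How often neck-type and pit-type members met in a cell was counted next. After thinning MucinDuctal cells to 5000 UMIs, a UMI of Muc6 or Tff2 together with one of Muc5ac or Tff1 was found in 5.79%, 22.9%, 5.50% and 11.2% of cells. The separate shares would give 6.13%, 22.6%, 5.50% and 11.2%, and single UMIs here include free RNA. Nearly all cells held Muc6 or Tff2 (97.5% to 99.9%), so the counted shares could not rise far above these values. This comparison therefore cannot show whether the members met more often than their shares give. Cells that held pit-type members alone made up at most 0.501%. The log2 odds ratio of meeting could be computed in 2 mice only, at -2.20 and 1.98, mean -0.11 ± 2.96. It showed no common direction.

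Raising the bar gave a different picture for the 2 neck-type genes. This comparison was added after the data had been seen. With Tff2 and Tff1 each above the background minimum at 5000 UMIs, the log2 odds ratio was 0.95, 2.85, 2.09 and 1.88, above 0 in 4 of 4 mice. The mean was 1.94 ± 0.79, and the two-sided exact sign-flip permutation test over the 4 mice gave p = 0.125, the smallest it can give. Of cells with Tff1 above its minimum, 81.1%, 89.8%, 87.2% and 84.1% also had Tff2 above its own, which some lymphocytes pass too. For Muc6 and Tff1 the same ratio was -1.05, 0.83, -0.65 and -0.62, mean -0.37 ± 0.83, with p = 0.5 by the same exact test. Muc6 accompanied Tff1 in 69.1%, 63.1%, 89.0% and 73.6% of such cells. The difference between the 2 ratios was not tested.

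Among all pairs of members in MucinDuctal cells, given as a description, Muc6 and Tff2 had a log2 odds ratio of 1.19 ± 1.07. It was above 0 in 4 of 4 mice, from 0.14 in 4-week mouse 1 to 2.57 in 2-week mouse 1. Single UMIs at 5000 UMIs were counted, and Tff2, free RNA included, was in 94.1% to 98.5% of cells. The joint share was on average 1.01 times that given by the separate shares. In cluster 1 the log2 odds ratio was above 0 in 3 of 4 mice and -0.54 in 4-week mouse 1. In Acinar/MucinDuctal cells, thinned to 1500 UMIs, the same pair had 2.33 ± 0.65, above 0 in 4 of 4 mice. There the joint share was on average 1.02 times that given by the separate shares, with Tff2 in 93.0% to 98.2% of cells. Muc1 and Muc6 had a log2 odds ratio of 0.04 ± 0.16 in MucinDuctal cells. Tff1 and Tff3 met at 1.71 ± 0.79 and Muc6 and Tff3 at -1.58 ± 1.05, each in the 3 mice with enough Tff3. Muc6 and Tff3 were thus below 0 in 3 of 3 mice and Tff1 and Tff3 above 0 in 3 of 3. The 4-week values rest on few cells. At 5000 UMIs Tff3 was found in 3.43% of MucinDuctal cells in 2-week mouse 2. In 4-week mice 1 and 2 it was found in 0.834% and 0.640%. Before thinning, MucinDuctal cells of these 4-week mice held 157 and 37 Tff3 UMIs, and 1 cell held 45.9% of the 157.

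Muc1, the membrane mucin, had a mean above its background in each of the 8 types, although fewer cells held a UMI of it (11891) than of Muc6 (13872) or Tff2 (20161). MucinDuctal cells were highest, at 415 and 400.1 CPM at 2 weeks and 380 and 413 CPM at 4 weeks, and did not overlap the next type. Tuft/EEC.Progenitor cells had 259 ± 8.51 CPM (n = 3), Ductal-like cells 229 ± 47.0, Acinar/MucinDuctal cells 218 ± 21.5 and Tuft cells 184 ± 33.5, each overlapping its neighbour. EEC cells at 110 ± 18.8 CPM overlapped neither Tuft cells above nor Acinar.Prolif cells below. Acinar.Prolif cells had 72.4 ± 9.01 CPM and Acinar cells 59.0 ± 16.9 CPM, and these 2 overlapped. Even the lowest type was above the background, whose highest mouse was at 15.8 CPM. At 1500 UMIs, 43.1% to 45.9% of MucinDuctal cells had a Muc1 UMI, against 0.953% to 2.19% of B-like cells.

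Tuft and enteroendocrine subtypes differed in Muc1. Among enteroendocrine subtypes, Epsilon (Ghrl+) cells, which make ghrelin, had 196 ± 32.7 CPM, Delta (Sst+) cells, which make somatostatin, 118 ± 22.0 CPM, and EEC-Progenitor (Neurog3+) cells 97.3 ± 7.31 CPM. Ppy+ cells had 51.1 ± 19.2 CPM and ECL (Tac1+) cells 24.6 ± 12.2 CPM. The lowest Epsilon mouse, at 168 CPM, was above the highest Delta mouse, at 145 CPM. Tuft-2 cells had 186 ± 28.6 CPM and Tuft-3 cells 204 ± 34.9 CPM, which overlapped. Tuft-1 cells had 65.1 and 56.3 CPM in the 2 mice with at least 20 of them, below every Tuft-2 and Tuft-3 value.

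Tff3, the intestinal trefoil peptide, did not follow the mucous types. EEC cells were highest, at 51.3 and 373 CPM at 2 weeks and 67.6 and 42.0 CPM at 4 weeks. Tuft/EEC.Progenitor cells had 144, 2.80 and 103 CPM in the 3 mice with enough cells, and overlapped EEC cells. MucinDuctal cells, the type richest in Muc6 and Tff2, had 5.11 ± 4.83 CPM. The other types had means of 2.18 to 8.02 CPM, and in Acinar, Acinar.Prolif and Acinar/MucinDuctal cells those means rested on 2-week mouse 2, at 8.76, 29.8 and 13.0 CPM.

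Within the enteroendocrine subtypes, Tff3 was highest in EEC-Progenitor (Neurog3+) cells, named for a transcription factor that starts endocrine development. They had 191, 926, 168 and 149 CPM in the 4 mice, above every other subtype in each mouse. Epsilon (Ghrl+) cells came next with 31.9 ± 14.2 CPM, then ECL (Tac1+) cells with 13.5 ± 13.7 CPM, and these overlapped. Delta (Sst+) and Tuft-2 and Tuft-3 cells were at 1.16 to 1.36 CPM. Tff3 UMIs were found in 28.9%, 54.8%, 15.3% and 22.1% of EEC-Progenitor cells before thinning and in 10.6%, 33.9%, 5.88% and 9.73% at 1500 UMIs. In B-like cells the share at 1500 UMIs was at most 0.303%, with median depths of 11361 to 14480 UMIs in EEC-Progenitor and 2791 to 3534 UMIs in B-like cells.

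The Tff3 level of this subtype rested on few cells. In 2-week mouse 1 a single cell held 55.4% of its 130 UMIs and in 4-week mouse 1 a single cell held 52.1% of 169. In 2-week mouse 2, 14 of 166 cells held 50% of 2241 UMIs. The level in that mouse was thus carried by more cells than in the others.

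**Figure D3:**
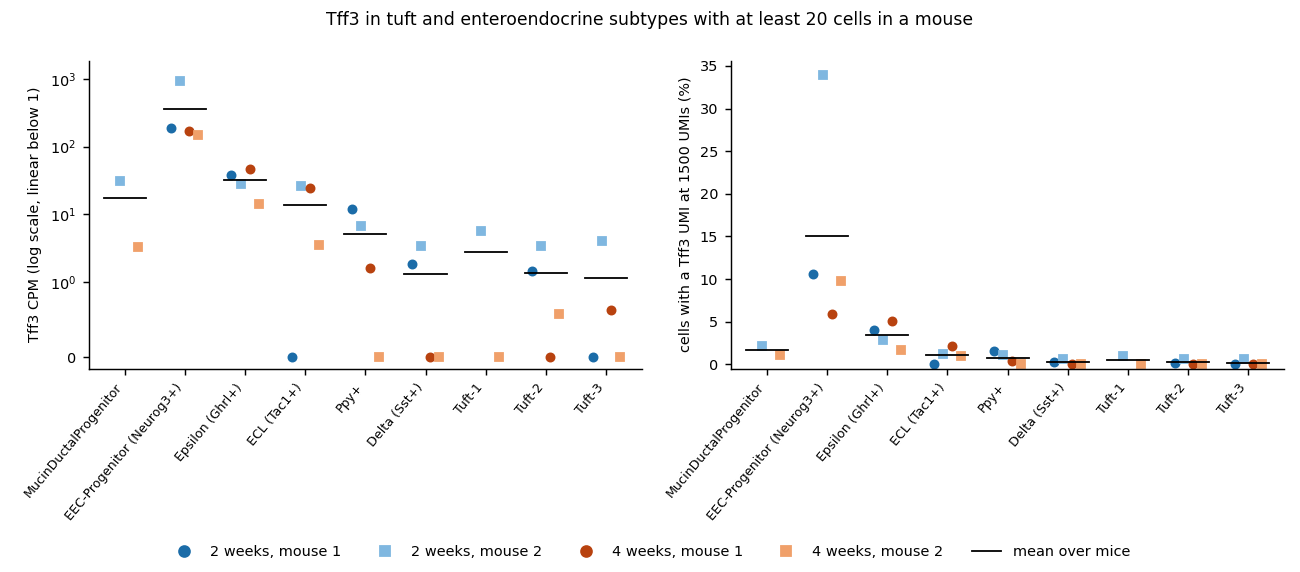
Tff3 in tuft and enteroendocrine subtypes, as CPM on a log scale that is linear below 1 (left) and as the share of cells (%) with a UMI after thinning to 1500 UMIs (right), with 1 point per mouse with at least 20 cells and a line at the mean. EEC-Progenitor (Neurog3+) cells are highest in each of the 4 mice, and 2-week mouse 2 is far above the other 3.

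Other genes ran parallel to single members. Over 31 sums of a mouse and a type, and among 10245 genes with enough counts, the 3 genes most like each member were taken by Pearson correlation of log2(CPM + 1). These sums share libraries and types, so the values are descriptions. Muc6 was most like Gkn3 (r = 0.985), a gastrokine of neck-type cells, then Slc9a4 (0.969) and Aqp1 (0.968). Tff2 was most like Agr2 (0.954), a folding enzyme of mucous cells, then Tcea3 (0.926) and Sec16b (0.923). Muc1 was most like Pdxdc1 (0.965), Galnt4 (0.960), which starts O-linked sugar chains, and Lgr4 (0.957). Tff1 was most like Msln (0.914), 2210407C18Rik (0.908) and Atp6v0a4 (0.889). Tff3 was most like 2700081O15Rik (0.830), Rcor2 (0.816) and Snn (0.814), and for Muc5ac, with its 39 UMIs, no gene passed 0.590. Between members, the highest value was 0.878 for Muc6 and Tff2, followed by 0.797 for Muc1 and Muc6, and Muc6 and Tff3 stood at -0.04.

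Lists of related genes put the members in context. These values describe the types and are not tests, and on CPM 84.2% of all 14387 genes with at least 100 UMIs in typed cells were higher in MucinDuctal than in Acinar cells in 4 of 4 mice (3.68% lower). With acinar enzymes left out of the totals, a scale added after the data had been seen, 56.3% were higher and 13.6% lower. Of mucous secretory helpers with at least 100 UMIs in typed cells, 14 of 16 were higher in MucinDuctal than in Acinar cells in 4 of 4 mice and 2 (Zg16 and Gcnt1) were lower, or 13 and 2 without the enzymes, a share near that of all genes on CPM. The median log2 ratio of the helpers was 2.98, and 2.00 without the enzymes, against 1.19 and 0.41 for all genes. Agr2 had 4801 ± 1408 CPM in MucinDuctal and 232 ± 66.4 CPM in Acinar cells, and A4gnt, which caps the sugar chains of gland mucin, 136 ± 74.2 and 0.927 ± 0.303 CPM. The neck-type list also held markers of SPEM (spasmolytic polypeptide-expressing metaplasia). All 7 genes of that list and all 6 pit-type genes with enough UMIs were higher in MucinDuctal cells on both scales. Their median log2 ratios were 5.66 and 3.48 on CPM, but the pit-type Gkn1 and Gkn2 had only 3.4 and 0.4 CPM in MucinDuctal cells. Of 12 other mucin genes, 4 had 100 UMIs and all 4 were above Acinar cells, 3 of them also without the enzymes. Muc4, a membrane mucin, had 11.6 ± 6.4 CPM in MucinDuctal and 14.9 ± 5.8 CPM in EEC cells. Muc13 had 72.0 ± 24.1 CPM in Tuft cells and 0.5 CPM in MucinDuctal cells. Muc2, the intestinal goblet mucin next to Muc6, had 12 UMIs in all 21140 cells. Of reported trefoil receptors, Cxcr4 had 5.2 CPM and Ackr3 1.4 CPM in MucinDuctal cells, and Lingo2 was at 0.0 CPM.

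The study's time comparison, 4 weeks against 2 weeks of caerulein, was tested within each of the 7 types with at least 20 cells in each mouse. The replicate is the mouse, n = 2 per time point. The p-values set a difference against the spread between animals, which the fit estimates in part from other genes. UMIs were summed per mouse and type and fitted with edgeR's quasi-likelihood test over all genes of a type, with Benjamini-Hochberg adjustment. Of 42 pairs of a member and a type, 28 had enough counts to be tested, and 0 passed an adjusted p of 0.05. The share of all genes called was 0.00% in 6 of the types and 0.00995% in Acinar.Prolif cells. At an unadjusted p under 0.05 there were 5 pairs: Tff2 in Acinar/MucinDuctal, in EEC and in Tuft cells, and Muc6 and Muc1 in Ductal-like cells. Of all genes, 6.73% were under that p in Tuft, 4.04% in EEC, 2.79% in Acinar, 2.45% in Acinar.Prolif, 3.42% in Acinar/MucinDuctal, 5.27% in Ductal-like and 5.39% in MucinDuctal cells. DESeq2 called 3 of the pairs, all of them Tff2, and 0 in Acinar (0.132% of genes called), Acinar.Prolif (0.0118%), MucinDuctal (0.319%) and Ductal-like cells (0.00602%). Without a gene filter edgeR called 10 of 41 pairs, where 0.688% of all genes over the 7 types were called, and 7 of them were among the 28: Tff2 in EEC, Tuft, Acinar/MucinDuctal and Ductal-like cells, Muc6 in Ductal-like and Acinar.Prolif cells, and Tff1 in Acinar cells. The count also depended on single mice: 11 of 34 pairs, 7 of them among the 28, passed by edgeR without 2-week mouse 1 (1.73% of all genes called) and 4 of 28 without 2-week mouse 2 (0.951%). None of 36 passed without 4-week mouse 1 (0.0665%) or without 4-week mouse 2 (0.0289%). In these fits the mouse left alone at its time point is assumed to vary like the other pair.

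In MucinDuctal cells no member passed the test. Muc6 differed by 0.76 ± 0.54 (log2 of 4 weeks over 2 weeks ± SE, adjusted p = 0.837, edgeR) and Tff2 by 0.96 ± 0.67 (adjusted p = 0.836), with 2-week mouse 2 far below the other mice in both. Tff1 was lower in both 4-week mice, at -1.42 ± 0.59 (adjusted p = 0.824), where 39.7% of all genes tested did not overlap between time points. Muc1 was level at 0.08 ± 0.17 (adjusted p = 0.939), with all mice between 380 and 415 CPM. On raw CPM its difference was -0.04, where the median of all genes was -0.13.

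In Acinar/MucinDuctal cells Tff2 showed the largest difference of a member, at 14359 and 5899 CPM against 30487 and 30476 CPM. The log2 difference was 1.68 ± 0.48 (edgeR adjusted p = 0.999, rank 90 of 11620 genes), and DESeq2 gave an adjusted p of 0.00361, with 0.184% of genes called by that tool. Muc6 stood at 0.84 ± 0.41 (adjusted p = 0.999) and Tff1 stood at -1.35 ± 0.73 (adjusted p = 0.999). These 3 genes did not overlap between time points, and neither did 32.4% of all genes. Here 2-week mouse 2, the mouse with the deepest cells, was lowest for Muc6 and Tff2 and highest for Tff1, and the part of depth in this was not tested. Without 2-week mouse 1, the difference was 2.43 for Tff2 (edgeR adjusted p = 0.0116) and 1.52 for Muc6 (adjusted p = 0.0440).

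In Ductal-like cells the 4-week values were the lower ones. Muc6 was at 1441 and 1377 CPM at 2 weeks and 299 and 727 CPM at 4 weeks, a log2 difference of -1.45 ± 0.38 (edgeR adjusted p = 0.900). Tff2 differed by -1.35 ± 0.58 (adjusted p = 0.901) and Muc1 by -0.49 ± 0.19 (adjusted p = 0.900). These 3 genes did not overlap between time points, nor did 34.8% of all genes tested. There were 38 and 56 of these cells at 2 weeks and 23 and 22 at 4 weeks. In 4-week mouse 1, the lowest for all 3 genes, the acinar enzyme list stood at 99621 CPM, against 21043 to 27637 CPM in the other 3 mice, and median depth was 8889 UMIs against 21039 to 38506. The part of these differences in the result was not tested. Without 2-week mouse 1 or 2, Muc6 passed (edgeR adjusted p = 0.000162 and 0.000199), and without 2-week mouse 1 so did Tff2, at -1.61 (adjusted p = 0.00818).

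Tff2 in Tuft and EEC cells was higher in both 4-week mice. In Tuft cells it was 362 and 253 CPM against 636 and 627 CPM, a log2 difference of 1.04 ± 0.18 (edgeR adjusted p = 0.155), and DESeq2 called it at an adjusted p of 6.75e-05, with 0.217% of genes called. In EEC cells it was 406 and 677 CPM against 1084 and 1166 CPM, 1.15 ± 0.21 (edgeR adjusted p = 0.779, DESeq2 adjusted p = 0.000440, with 0.0753% of genes called). On CPM, all these Tuft values were below the lymphocyte background of their mouse, which itself went from 503 and 668 CPM to 1529 and 2640 CPM. In UMIs per cell Tuft cells had 7.45, 5.10, 9.97 and 10.2, each above the background of 1.96, 2.91, 5.70 and 8.25. In EEC cells 1 of 4 values, 677 against 668 CPM, was above the background on CPM. In UMIs per cell all 4 EEC values were above it, at 6.23, 9.55, 14.0 and 14.4. The part of free RNA in these time differences was not tested. Between time points 1 tested member, Tff2, did not overlap in Tuft cells, nor did 35.5% of all genes, and in EEC cells Tff2 and Muc1 did not, nor did 32.5% of all genes. Without 2-week mouse 1, edgeR called Tff2 in Tuft (adjusted p = 0.00143) and in EEC cells (0.00283, or 2.35e-06 without 2-week mouse 2).

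In Acinar cells no member passed either: Tff2 differed by 0.26 ± 0.34, Muc6 by 0.50 ± 0.52, Muc1 by -0.26 ± 0.25 and Tff1 by -1.91 ± 0.85 (edgeR, adjusted p = 0.998 for each). Scaling decides the direction of 2 of them. On raw CPM the median difference of all genes tested was -0.49. Tff2 was then at -0.21 and Muc6 at -0.04, both above the median gene. Muc1 and Tff1 did not overlap between time points, and neither did 62.6% of all genes. In Acinar.Prolif cells Muc6 was at 0.89 ± 0.49, Tff2 at 0.16 ± 0.25 and Muc1 at -0.13 ± 0.18 (adjusted p = 1.000 for each), where the raw median shift was -0.21 and put Tff2 at -0.03. Without 2-week mouse 2, Muc6 passed at 1.47 in Acinar and 1.49 in Acinar.Prolif cells (edgeR adjusted p = 0.0215 and 1.50e-11). On CPM, Muc6 was below the lymphocyte background of the same mouse in 4 of 4 mice in both types. In UMIs per cell it was above that background in 4 of 4 mice in both types. Acinar cells held 1407 Muc6 UMIs in 1461 cells, 1750 in 583, 1550 in 762 and 2363 in 892. Acinar.Prolif cells held 512 in 456 cells, 307 in 104, 448 in 187 and 797 in 147. The lymphocytes held 0.159, 0.481, 0.393 and 0.481 UMIs per cell. Without 2-week mouse 2 the background went from 40.8 CPM to 105 and 154 CPM. The part of free RNA was not tested. In Acinar.Prolif cells 1 member, Muc1, did not overlap between time points, and neither did 31.7% of all genes.

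Tff3 could be tested in 3 types. In EEC cells it was at -1.81 ± 1.29 (adjusted p = 0.986), with 2-week mouse 2 far above the others, and without that mouse at 0.13. In MucinDuctal cells it was at 0.06 ± 1.36 and in Ductal-like cells at 0.23 ± 1.97. In MucinDuctal cells the mice stood at 0.348 and 9.77 CPM at 2 weeks and at 8.74 and 1.59 CPM at 4 weeks. These wide errors leave its direction undetermined with 2 mice per time point.

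**Figure D4:**
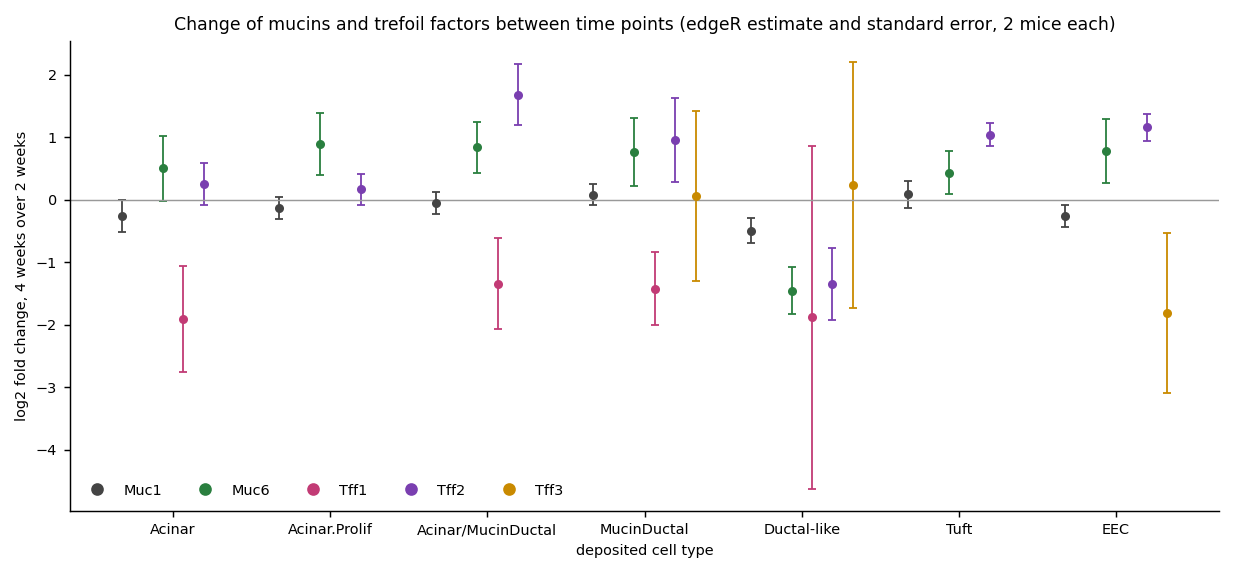
Log2 difference of 4 weeks over 2 weeks (edgeR estimate, bar 1 SE, 2 mice per time point) for each member tested in each of the 7 types. Tff2 and Muc6 lie above 0 in Acinar/MucinDuctal cells and below 0 in Ductal-like cells, and 0 of the 28 values passed an adjusted p of 0.05.

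Whether a time difference itself differed between types was tested with mouse as a block. For MucinDuctal against each of the 6 other types, 0 members passed an adjusted p of 0.05 by edgeR, where 0.146% of genes passed against Acinar/MucinDuctal cells and 0.00% against each other type. At an unadjusted p under 0.05 there were 7: Tff3 against all types but Ductal-like, Tff2 against Acinar/MucinDuctal and Muc1 against Ductal-like. Of all genes, 3.05% were under that p against Acinar, 4.10% against Acinar.Prolif, 5.51% against Acinar/MucinDuctal, 6.46% against Ductal-like, 5.94% against Tuft and 4.17% against EEC cells. DESeq2 called 1 member, Muc6 against Ductal-like (0.219% of genes called), and 0 against Acinar (0.00%), Acinar.Prolif (0.0144%), Acinar/MucinDuctal (0.168%), Tuft (0.00942%) and EEC cells (0.00928%). Tff2 in MucinDuctal minus Acinar/MucinDuctal was at -0.68 ± 0.25 (adjusted p = 0.695) and Muc1 in MucinDuctal minus Ductal-like at 0.62 ± 0.24 (adjusted p = 0.753). Muc6 in MucinDuctal minus Ductal-like was at 2.45 ± 0.90 (edgeR adjusted p = 0.775, DESeq2 adjusted p = 0.0353). Tff3 in MucinDuctal minus Acinar was at 4.95 ± 0.60 (adjusted p = 0.548), on 152 UMIs in the Acinar cells of 2-week mouse 2, of which 1 cell held 43.4%. It passed without 2-week mouse 1 (adjusted p = 3.56e-08) and without 4-week mouse 2 (adjusted p = 0.0176).

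The opposite signs in Acinar/MucinDuctal and Ductal-like cells were compared directly after they had been seen. The time difference in Acinar/MucinDuctal cells minus that in Ductal-like cells was 2.52 ± 0.89 for Muc6 and 3.37 ± 1.15 for Tff2. By edgeR both had an adjusted p of 0.945, with 0.0956% of genes called. By DESeq2 both passed, at adjusted p = 0.0105 for Muc6 and 0.000292 for Tff2, with 0.255% of genes called. The call thus depended on the tool.

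The share of cells with a member was compared over time as well, although a permutation test of 2 against 2 mice cannot pass. At 1500 UMIs, MucinDuctal cells with Muc6 went from 81.4% and 58.7% to 93.0% and 84.3%, and with Tff2 from 83.8% and 84.4% to 86.8% and 92.8%. In Acinar/MucinDuctal cells Muc6 went from 74.2% and 60.6% to 81.9% and 81.4% and Tff2 from 93.0% and 94.2% to 97.5% and 98.2%. For each of these 4 the two-sided exact permutation p was 0.333, the smallest that 2 against 2 mice can give (adjusted p = 0.8 over 12 comparisons). For Tff2 the B-like share went from 44.8% and 49.5% to 74.9% and 81.6% over the same mice.

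No gene of the helper, pit-type or neck-type and SPEM lists passed an adjusted p of 0.05 over time in any of the 7 types. Of 16 mucous secretory helpers in MucinDuctal cells, 5 were higher at 4 weeks at an unadjusted p under 0.05 and 0 were lower. Of all 13463 genes, 312 were higher and 414 lower at that p, 5.39% in both directions together. The median of the helpers was 0.34 against -0.01 for all genes. Of 7 pit-type genes 3 were higher at that unadjusted p, with a median of 0.64. In Acinar, Acinar.Prolif, Acinar/MucinDuctal and Ductal-like cells 0 of 4 pit-type genes were under it. In Tuft cells 1 of 4 was lower and in EEC cells 1 of 5 higher. In Ductal-like cells 5 of 14 helpers were lower at that p and 0 higher, with a median of -0.87 against -0.01 for all genes. Of all 8748 genes there, 203 were higher and 258 lower, 5.27% together. Of 7 genes of the neck-type and SPEM list, 2 were lower there, with a median of -0.74. In MucinDuctal cells 0 of them passed the unadjusted p, with a median of 0.35. Elsewhere 0 of 16 helpers in Acinar/MucinDuctal, 0 of 13 in Tuft and 0 of 14 in EEC cells were under that p. In Acinar cells 1 of 16 and in Acinar.Prolif cells 1 of 13 were higher. Of the neck-type and SPEM list, 1 gene was higher in each of Acinar, Acinar.Prolif and EEC cells. In Acinar/MucinDuctal cells 1 was lower, and in Tuft cells 1 was higher and 1 lower. The shares of all genes under that p are given above.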

How the data were processed

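The authors deposited unnormalized UMI counts for each gene in each cell, with names of type, subtype and cluster. Per the submitters' processing notes, Cell Ranger 4.0.0, Seurat 3.2.3 and genome build mm10 were used; how types were assigned is not given in the sources used here. Members and gene lists were chosen with earlier results of these data known. The EYFP-positive table equalled the same cells of the merged table. Counts were summed per mouse and type. Time points were compared with edgeR 4.0.16 under R 4.3.3 (quasi-likelihood, robust, TMM, filterByExpr) in types with at least 20 cells per mouse, and DESeq2 1.42.0 was an alternative. Shares were computed after thinning each cell to 1500 UMIs, leaving out shallower cells, and co-detection at 5000. Untyped cells were clustered with scanpy 1.11.5 (2000 variable genes, 30 components, 15 neighbours, Leiden resolution 0.6) and named from marker lists. Of 21140 cells Scrublet marked 51 (0.241%), a share at which it cannot be said to work, and all cells were kept. Leaving out the 905 highest scores was an alternative.

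Named genes are the 6 members, genes of the lists (other mucins, mucous secretory helpers, pit-type, neck-type with SPEM, trefoil receptors, acinar enzymes) and the 3 genes most like each member over 31 sums. Intervals are exact 95% binomial (Clopper-Pearson) and cover counting error only. Replicate numbers were given in accession order. The fits were tested on simulated counts: in MucinDuctal, 24 of 200 genes changed 2-fold and 176 of 200 changed 4-fold were recovered among 13463 genes, with 0 and 5 false calls. Depth per mouse was 72459531 to 103610807 UMIs. Coordinates and upstream bases come from RefSeq (GRCm38.p6). Other alternatives were RLE scaling, no gene filter, a fit that was not robust, enzymes left out of the library size, and leaving out each mouse.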

Additional observations from a re-analysis of the deposited data

Results flagged for a closer look

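Cells without a deposited type held members above the lymphocyte background, whose means over mice were 10.8 CPM for Muc1, 103 CPM for Muc6 and 1335 CPM for Tff2. An untyped cluster of 1346 cells named Ductal and mucin/ductal-like, with a median of 1808.5 UMIs and led by Cym and Tff2, had 274 CPM of Muc1, 2882 CPM of Muc6 and 23814 CPM of Tff2. An untyped Enteroendocrine or islet-like cluster of 295 cells, led by Ppy and Chgb, had 239 CPM of Muc1, 3251 CPM of Muc6 and 20229 CPM of Tff2. These Muc6 and Tff2 levels are above those of the deposited EEC type, at 90.3 and 833 CPM. An untyped Acinar-like cluster of 1135 cells had 70.8 CPM of Muc1, and an unnamed cluster of 299 cells, led by Snorc and Lcn2, had 133 CPM of Muc1.

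Between time points, both mice of one time point lay beyond both of the other in opposite directions in different types. Of all genes tested, 32.4% did not overlap between time points in Acinar/MucinDuctal, 32.5% in EEC, 35.5% in Tuft and 34.8% in Ductal-like cells. For Muc6 the log2 difference was 0.84 in Acinar/MucinDuctal and -1.45 in Ductal-like cells. For Tff2 it was 1.68 in Acinar/MucinDuctal, 1.04 in Tuft and 1.15 in EEC cells against -1.35 in Ductal-like cells. On CPM, the Tff2 level was below the lymphocyte background of the same mouse in 4 of 4 Tuft and 3 of 4 EEC values. That background was 503 and 668 CPM at 2 weeks and 1529 and 2640 CPM at 4 weeks. In UMIs per cell, each Tuft and EEC value was above the background of its mouse. The part of free RNA was not tested. The difference between Acinar/MucinDuctal and Ductal-like cells was tested after it had been seen and passed by DESeq2 and not by edgeR. The differences between Tuft or EEC and Ductal-like cells were not tested.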

How the results depend on the processing

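No paired analysis was possible because the replicate numbers were given in accession order and pair no mice. Counts of member-type pairs past an adjusted p of 0.05 over time, of the pairs each fit could test, went from 0 to 3 with DESeq2 and to 10 without a gene filter (7 of them among the 28 pairs of the main comparison), and from 0 to 11 over the fits that left out a mouse (11 without 2-week mouse 1, 7 of them among the 28, and 4 without 2-week mouse 2, all among the 28), in which a lone mouse is assumed to vary like the other group. Over all genes and 7 types the count went from 1 to 130 with DESeq2, 892 without a gene filter, 0 when not robust, 4 without the highest doublet scores, and 24 to 1410 without 1 mouse. For differences between types the members past the threshold went from 0 to 1 with DESeq2 and 0 to 7 without 1 mouse, and all genes from 19 to 49 with DESeq2 and 62 to 2939 without 1 mouse. RLE scaling and enzymes left out of the library size changed none of these counts for the time effect. For differences between types without 1 mouse, the numbers of members and genes tested are not given here. The count of 7 members can thus not be set against a share of all genes, and no conclusion is drawn from it. Of 278 values over time 244 kept direction and side, 21 passed and 13 reversed, all 13 when a mouse was left out. The ranges over left-out mice were -0.45 to 0.0357 for Muc1, -0.0170 to 1.47 for Muc6 and -0.0349 to 0.52 for Tff2 in Acinar, -0.32 to 0.11 for Muc1 in Acinar.Prolif, -0.17 to 0.0683 for Muc1 in Acinar/MucinDuctal, -1.59 to 3.94 for Tff3 in MucinDuctal, -9.22 to 3.13 for Tff1 and -6.42 to 1.19 for Tff3 in Ductal-like, -0.16 to 0.36 for Muc1 and -0.0263 to 0.80 for Muc6 in Tuft, and -2.60 to 0.13 for Tff3 in EEC cells. Shares in MucinDuctal cells, as percentage points at 4 minus 2 weeks, reversed for Muc5ac with at least 2 UMIs (0.000807) and not thinned (0.0822), Tff2 not thinned (-0.340) and Tff3 with at least 2 UMIs (0.0677). The main co-detection value lay between -2.20 and 1.98 without 1 mouse, and no value was obtained for cells that were not thinned, for Muc5ac alone or for author cluster 2. With fewer mice or without the gene filter the fits rest on other samples and genes; beyond that, the cause was not tested.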

Other observations

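Muc16, a membrane mucin of mesothelium, was the reverse of the 6 genes: 476 of its 494 UMIs came from cells without a deposited type, and 18 from typed cells. It was among the leading genes of an untyped Mesothelial-like cluster of 111 cells. Muc3a had 637 UMIs and Muc20 516 UMIs in all cells, mostly in typed cells (586 and 466). Muc15 and Muc19 had 0 UMIs in 21140 cells.

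Across the authors' 3 acinar clusters, Tff2 was at 2168 ± 194 CPM in cluster 0, 1295 ± 229 CPM in cluster 6 and 2620 ± 125 CPM in cluster 8 (n = 4). Muc6 was at 59.3 ± 20.0, 34.5 ± 15.9 and 119 ± 42.2 CPM in the same clusters, so the means of both genes had the same order there. On CPM these means lie within or below the lymphocyte background. That background ran from 503 to 2640 CPM for Tff2 and from 40.8 to 154 CPM for Muc6 over the mice. The part of free RNA in this order was not tested. In EEC cluster 9, Tff3 was at 212 ± 255 CPM, against 3.34 ± 3.30 CPM in cluster 11 and 13.2 ± 13.6 CPM in cluster 12.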
